A study of Homo sapiens with 9 samples.

Results

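The ADAM, ADAMTS, ADAMTS-like, MMP and TIMP genes are described here in SH-SY5Y, a cell line from a human neuroblastoma, the childhood tumour of the sympathetic nervous lineage. The members were every gene ID in the count tables whose symbol is ADAM, ADAMTS, ADAMTSL or MMP followed by a number alone, or TIMP1 to TIMP4. ADAM5 and ADAM6, annotated as pseudogenes, were left out, which gave 70 of 61487 gene IDs: 20 ADAM, 19 ADAMTS, 5 ADAMTSL, 22 MMP and 4 TIMP genes. MMP23B, whose symbol ends in a letter, falls outside the rule. The cells were kept for 72 h with vehicle (0 µM), 10 µM or 20 µM citrinin, a mycotoxin of Penicillium, Aspergillus and Monascus moulds, in MEM/F12 medium with 15% FBS. RNA-seq of total RNA gave 3 libraries per group, 9 in all. The study's question was how citrinin alters the transcriptome of the line. The solvent of the vehicle is not named in the sources used here.

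These genes encode the main secreted and surface metalloproteinases and their inhibitors. ADAMs are membrane proteins, most of which shed the outer parts of other surface proteins, such as growth factors, Notch and the amyloid precursor protein, while some members have lost protease activity and act as adhesion or ligand-binding proteins. ADAMTS enzymes are secreted, carry thrombospondin repeats, and cut proteoglycans, procollagens or blood proteins; the ADAMTS-like proteins have the repeats but no protease domain. MMPs degrade collagens, gelatins and other matrix proteins, either secreted or at the membrane, and TIMPs block MMPs and some ADAMs. In nervous tissue they take part in axon growth, synapse assembly and remodelling of the matrix around neurons.

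Reads assigned to genes came to between 15678443 and 19604367 per library, so 3 reads in a library equal 0.153 to 0.191 CPM (reads scaled to library size with TMM factors). Same-numbered libraries of different doses resembled each other, and the replicate number was therefore also entered in the model as a block. "Rose" and "fell" are used below of genes with a Benjamini-Hochberg adjusted p below 0.05 over all 17806 genes tested in edgeR with that block. In the planned edgeR fit without it no gene passed in any dose comparison. Whether the replicates came from separate cultures is not stated, and the p-values measure only how far these libraries spread, which may be technical. The identity of the cells was checked with 12 sympathetic neuroblast markers, all of which had at least 173 reads in every library. Their summed level was 3222 to 3974 CPM in vehicle, 3150 to 3854 at 10 µM and 2710 to 3640 at 20 µM.

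Of the 70 genes, 49 had enough reads to be tested. ADAM2, ADAMTSL3, MMP20, MMP26 and MMP27 had no read in any of the 9 libraries. A further 15 had 1 to 30 reads over all libraries together (ADAM7, ADAM18, ADAM20, ADAM28, ADAM29, ADAM30, ADAMTS8, ADAMTS18, MMP3, MMP7, MMP8, MMP10, MMP12, MMP13 and TIMP4). MMP25 had 70 reads and was not tested either. Levels of different genes are compared only per kilobase of annotated exon, as CPM per kilobase in vehicle.

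Among the MMPs, expression was dominated by MMP2, the gelatinase that cuts denatured collagen and basement membrane. MMP2 stood at 151 ± 16.0 CPM per kilobase in vehicle (SD, n = 3), 79.7% of the summed level of the MMP genes. MMP14, the membrane-type enzyme that activates MMP2 at the cell surface, was at 9.75 ± 4.82, and the stromelysin MMP11 at 6.73 ± 2.16 CPM per kilobase. MMP24 had 4.87 CPM per kilobase, but 50.8% of the reads on its exons are missing from the count used, as described below. The order below MMP2 may depend on such reads. MMP9, the other gelatinase, reached 4.22 CPM per kilobase, and of the collagenases MMP1 was tested at 0.48 while MMP8 and MMP13 were not. TIMP2, which inhibits MMP2 and also bridges it to MMP14, had 126 ± 5.21 CPM per kilobase, the soluble inhibitor TIMP1 had 111 ± 33.5 and the matrix-bound inhibitor TIMP3 had 19.1 ± 4.44. On this scale the vehicle libraries of TIMP1 overlapped those of TIMP2 and of MMP2.

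ADAMTS9, an aggrecanase that cuts versican and aggrecan, made up 54.1% of the summed level of the 19 ADAMTS genes, with 66.4 ± 5.64 CPM per kilobase. ADAMTS19, an enzyme with few known substrates, followed at 11.5 ± 7.94 and ADAMTS7, which cuts the cartilage protein COMP, at 11.1 ± 2.45. Among the ADAMs the order was flatter. ADAM22, a protease-dead receptor for the secreted synaptic protein LGI1, was highest at 26.1 ± 5.52 CPM per kilobase, 21.7% of the family's sum. ADAM9 (22.3 ± 3.42) and ADAM19 (15.9 ± 2.32), both active sheddases, came next, and ADAM22 and ADAM9 differed by less than the spread between libraries. ADAM15 followed at 15.4 ± 0.625 and overlapped ADAM19. ADAM17, which sheds tumour necrosis factor and growth factor precursors, was at 9.89 ± 0.503 and ADAM10, the main Notch and amyloid precursor sheddase, at 9.08 ± 0.793. The ADAM17 level may be incomplete, because 35.7% of the reads on its exons are missing from the count used. These reads may come from ADAM17 or from a gene on the opposite strand, as described below.

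**Figure D1:**
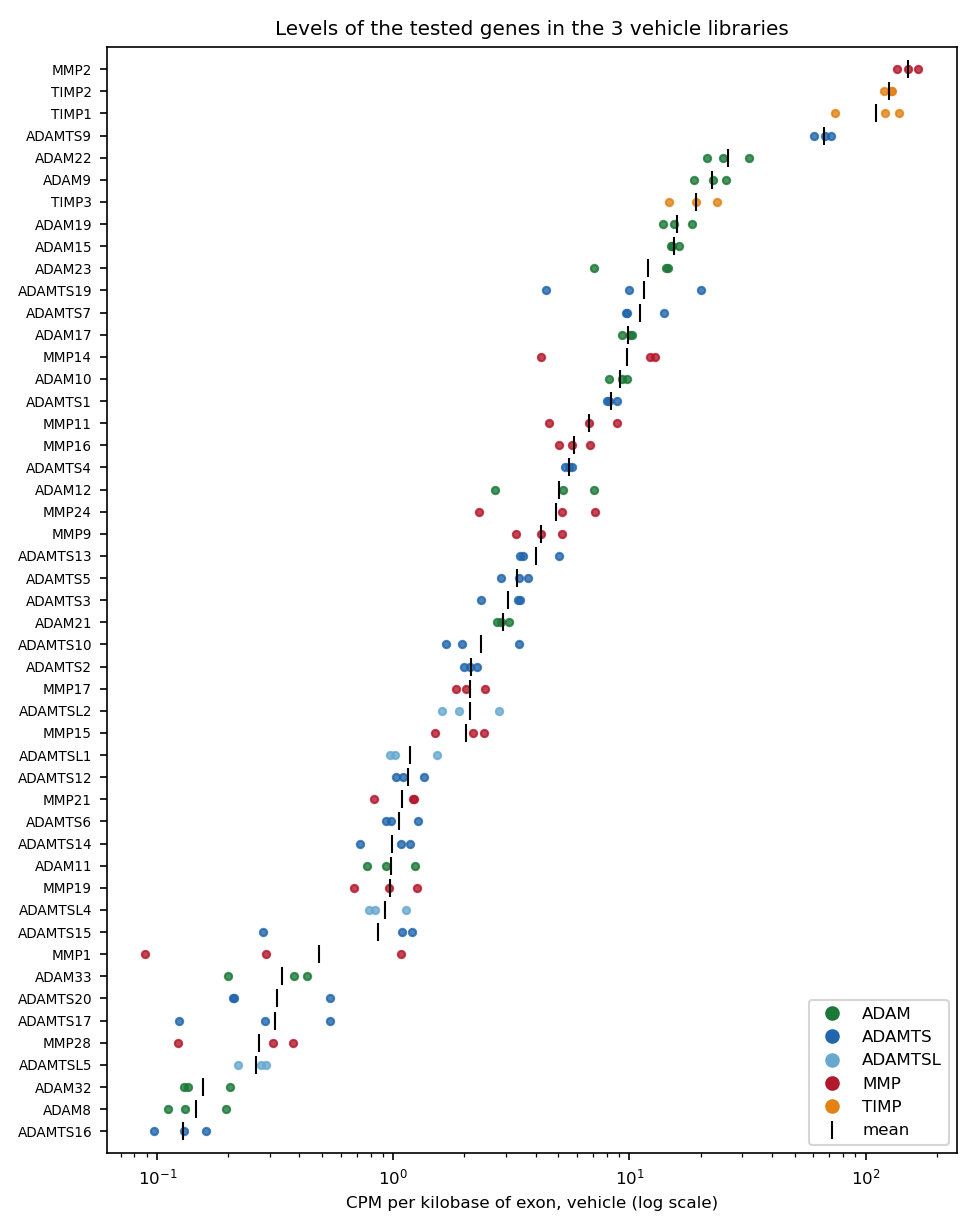
CPM per kilobase of exon (log scale) of the 49 tested genes in the 3 vehicle libraries, coloured by family; points are libraries and ticks are means. MMP2, TIMP2, TIMP1 and ADAMTS9 form the top of the order, from 151 down to 66.4 CPM per kilobase.

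The comparison of 20 µM citrinin with vehicle held all 5 members called at any dose. The aggrecanase ADAMTS5 and the procollagen N-propeptidase ADAMTS2, which removes the amino-terminal propeptide of fibrillar collagens, had the largest called changes, each 1.48-fold lower. TIMP3 and ADAM22 fell by smaller amounts, and ADAM23, another protease-dead LGI1 receptor of neurons, rose. No MMP, no ADAMTS-like gene and no protease-active ADAM passed. Of the 49 tested members 1 rose and 4 fell, which is 10.2% called, beside 2.21% of all 17806 genes (0.848% rose and 1.36% fell). ADAMTS2 and ADAMTS5 were among the genes by which this group was proposed, so this share is a description. The median log2 fold change was -0.03 over the tested members and 0.00 over all tested genes.

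Without the block 0 members passed in edgeR, and every member had an adjusted p of 1. At an unadjusted p below 0.05 there were 3 (2.17% of all genes reached that), namely ADAMTS5, ADAMTS2 and ADAMTS1. With the block 11 had an unadjusted p below 0.05, beside 13.1% of all genes. The summed neuroblast markers were lower at 20 µM in 3 of 3 same-numbered pairs, from 3974 to 3640, 3799 to 3248 and 3222 to 2710 CPM, with 11 of the 12 genes lower in each pair. The mesenchymal sum was higher in 3 of 3 pairs, from 3509 to 3518, 2431 to 2553 and 3250 to 3361 CPM. Its 13 genes did not move together. In each pair 3 (VIM, CD44 and YAP1) were higher and 5 (PRRX1, TWIST1, COL1A2, DCN and PDGFRB) were lower. Of all 17806 tested genes 3108 were higher in 3 of 3 pairs and 3174 in 0 of 3. The part of these marker differences in the members' calls was not tested. DESeq2 and limma-voom without the block also called 0 members, and with the block each called the same 5 as edgeR.

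ADAMTS5, the main aggrecan-cutting enzyme of cartilage and also a lectican protease in brain, stood at 33.7, 30.8 and 25.8 CPM in vehicle replicates 1, 2 and 3. It was at 27.6, 26.6 and 24.2 CPM at 10 µM and at 17.9, 21.8 and 21.0 CPM at 20 µM. All 3 libraries at 20 µM lay below all 3 at each other dose. From vehicle to 20 µM it fell from 30.1 ± 3.99 to 20.2 ± 2.07 CPM, a log2 fold change of -0.57 ± 0.09 SE (edgeR with the replicate block, adjusted p = 0.000597). Of the 5 it alone was called in all 9 fits that leave out 1 library, with an adjusted p of 1.21e-05 to 0.032. ADAMTS5 (ENSG00000154736) lies at 26917912 to 26966513 on chromosome 21 (GRCh38, GENCODE 29, minus strand), and reads were counted over its exons.

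ADAMTS2 was at 19.8, 18.4 and 17.4 CPM in vehicle, at 19.4, 13.1 and 17.9 CPM at 10 µM, and at 16.6, 10.5 and 11.1 CPM at 20 µM. The 20 µM libraries were below the vehicle libraries without overlap, but replicate 1 at 20 µM was above replicate 2 at 10 µM. It fell from 18.5 ± 1.20 to 12.7 ± 3.40 CPM (-0.56 ± 0.12; edgeR with the block, adjusted p = 0.00622). Leaving out vehicle replicate 2 or 20 µM replicate 3 ended the call, with an adjusted p of up to 0.225. ADAMTS2 (ENSG00000087116) lies at 179110851 to 179345430 on chromosome 5, minus strand. The other propeptidases did not pass: ADAMTS3 and ADAMTS14 both had lower fitted values at 20 µM, and the median log2 fold change of the 3 was -0.19.

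TIMP3, the inhibitor with the widest action on ADAMs and ADAMTS enzymes, was at 108, 67.4 and 88.2 CPM in vehicle. It was at 97.7, 58.0 and 85 CPM at 10 µM and at 86.3, 55.2 and 78.4 CPM at 20 µM. Replicate 2 was lowest and replicate 1 highest at every dose, so the dose groups overlapped, while each same-numbered series was lower at 20 µM than in vehicle. The log2 fold change was -0.26 ± 0.06 (edgeR with the block, adjusted p = 0.00793). It was no longer called without vehicle replicate 1 or vehicle replicate 2 (adjusted p up to 0.153). TIMP3 (ENSG00000100234) lies at 32801701 to 32863043 on chromosome 22, plus strand. TIMP1 and TIMP2 did not pass. TIMP1 was at 186, 114 and 214 CPM in vehicle, 182, 132 and 211 at 10 µM, and 229, 124 and 203 at 20 µM. For TIMP2 the values were 731, 675 and 718 CPM in vehicle, 733, 649 and 716 at 10 µM, and 720.1, 637 and 681 at 20 µM. Both sets overlapped between the doses.

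The 2 related LGI1 receptors moved in opposite directions. ADAM22 was at 259.9, 392 and 302 CPM in vehicle, 266, 333 and 298 at 10 µM, and 226, 340.3 and 258 at 20 µM. It fell by 0.21 on the log2 scale (SE 0.05; edgeR with the block, adjusted p = 0.0209). The call was lost in 5 of the 9 fits that leave out 1 library, those without any of the vehicle libraries or without replicate 3 at either dose, with an adjusted p of up to 0.365. ADAM23 was at 45.4, 93.2 and 91.9 CPM in vehicle, 48.2, 95.9 and 93.7 at 10 µM, and 59.1, 113 and 99.7 at 20 µM. It rose by 0.25 ± 0.06 (adjusted p = 0.0138 in edgeR with the block), and leaving out vehicle replicate 1, vehicle replicate 2 or 20 µM replicate 2 ended the call (adjusted p up to 0.191). For both genes the dose groups overlapped, and replicate 1 was the lowest library at every dose. ADAM22 (ENSG00000008277) lies at 87934143 to 88202889 on chromosome 7 and ADAM23 (ENSG00000114948) at 206443539 to 206621130 on chromosome 2, both on the plus strand. LGI1 itself, named after its values were seen, was low, at 2.45 ± 0.418 CPM in vehicle and 1.49 ± 0.158 at 20 µM. It was lower at 20 µM without overlap, as were 3.35% of all genes, and did not pass (-0.72 ± 0.28, edgeR with the block, adjusted p = 0.223).

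**Figure D2:**
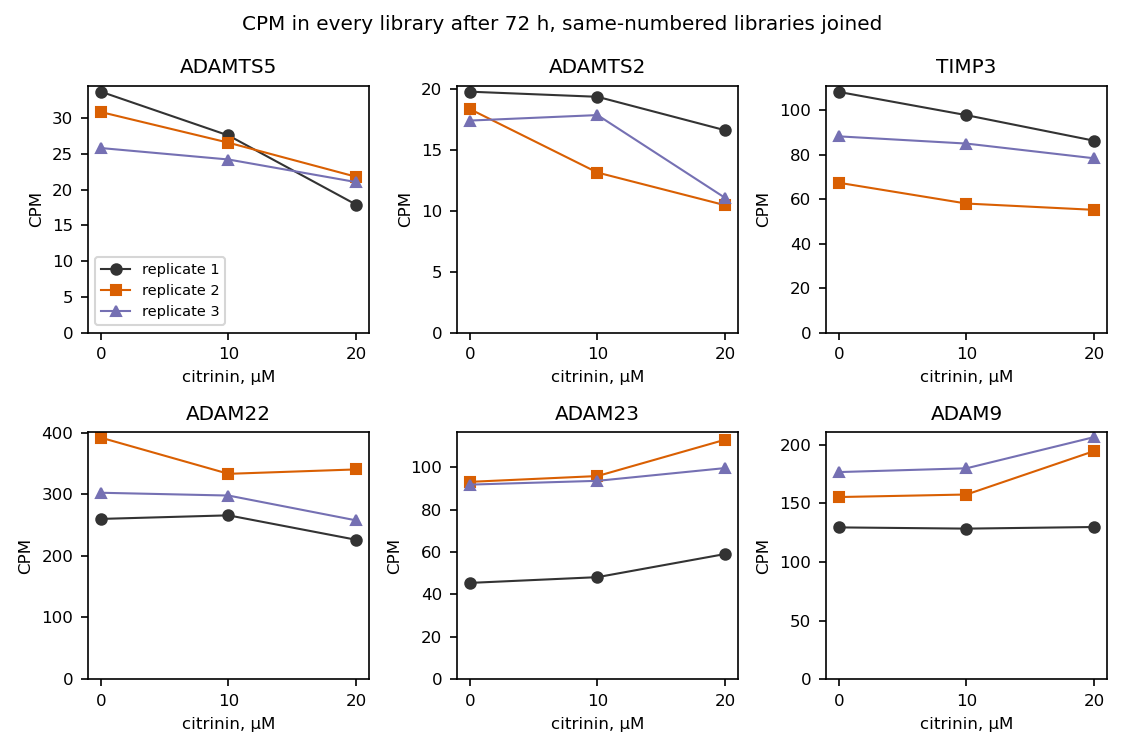
CPM (from 0) against citrinin dose for the 5 called genes and for ADAM9, which did not pass; lines join libraries with the same replicate number. The 20 µM values of ADAMTS5 (17.9 to 21.8 CPM) lie below all vehicle values, whereas TIMP3, ADAM22, ADAM23 and ADAM9 differ more between replicate numbers than between doses.

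The promoter of ADAM22 is left out because its window runs far into an annotated exon. Those of 3 other called genes are shown, ADAMTS2 and TIMP3 as genes that fell and ADAM23 as the gene that rose. They are the 250 bases before the RefSeq start on GRCh38.p14, 5′ to 3′ on the gene's strand, with capitals marking each GGGCGG or its complement CCGCCC, the core of a GC box bound by Sp1-type factors. The entries are chr5:179345462-179345711 (minus strand), chr22:32801455-32801704 (plus) and chr2:206443282-206443531 (plus).
ADAMTS2: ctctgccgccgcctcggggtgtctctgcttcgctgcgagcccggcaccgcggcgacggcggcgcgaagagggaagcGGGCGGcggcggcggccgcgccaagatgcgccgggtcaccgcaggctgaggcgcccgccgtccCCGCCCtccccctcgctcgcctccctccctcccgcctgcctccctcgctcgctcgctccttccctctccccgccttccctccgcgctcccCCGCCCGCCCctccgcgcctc
TIMP3: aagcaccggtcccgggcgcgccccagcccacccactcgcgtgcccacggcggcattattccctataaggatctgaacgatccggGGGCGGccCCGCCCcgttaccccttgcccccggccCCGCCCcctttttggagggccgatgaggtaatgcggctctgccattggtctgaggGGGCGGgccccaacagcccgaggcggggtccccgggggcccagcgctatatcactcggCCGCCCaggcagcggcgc
ADAM23: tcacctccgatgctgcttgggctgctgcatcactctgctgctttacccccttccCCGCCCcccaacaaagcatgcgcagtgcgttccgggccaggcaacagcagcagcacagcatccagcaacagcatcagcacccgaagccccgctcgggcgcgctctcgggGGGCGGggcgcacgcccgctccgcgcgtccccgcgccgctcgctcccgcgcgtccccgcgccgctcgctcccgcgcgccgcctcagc

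These windows held 4, 5 and 2 GC box cores, counted on both strands with overlaps allowed, and were 80.0%, 72.4% and 73.6% G or C. Of the 31 tested members with a RefSeq promoter entry, 83.9% had at least 1 such core, against 42.6% of all 35116 promoter entries, at a median G and C content of 73.6% against 58.0%. The 31 had passed the low-count filter, with 1 entry per gene. The 35116 were neither filtered by expression nor reduced to 1 per gene, so the 2 sets are not alike. The antioxidant response element core TGACNNNGC, to which NRF2 binds, was found in 1 of the 31 (ADAMTS2) and in 10.9% of all entries. An AP-1 site, TGANTCA, was in 1 of the 31 and in 6.57% of all. TATAAA was in 9.68% of the 31 and 10.7% of all. These motifs were searched on both strands and are descriptions of the letters only.

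Other members did not pass at 20 µM. The nearest was ADAM9, at 129, 155 and 177 CPM in vehicle, 128, 158 and 179.9 at 10 µM, and 129.8, 195 and 207 at 20 µM. Its replicate 1 libraries were level across the doses while replicates 2 and 3 were higher at 20 µM (0.19 ± 0.05; edgeR with the block, adjusted p = 0.0628). ADAMTS1, an aggrecanase whose gene lies 72502 bases from ADAMTS5 on chromosome 21, was lower at 20 µM without overlap. It was at 57.6, 62.6 and 56.7 CPM in vehicle and at 46.7, 53.3 and 54.3 CPM at 20 µM (-0.20 ± 0.06; edgeR with the block, adjusted p = 0.125). ADAM9 and ADAMTS1 were singled out after their values were seen. All 6 tested aggrecanases had log2 fold changes below 0, with a median of -0.14, and 1 of them, ADAMTS5, passed. Of all 17806 genes 9005 were below 0. The values of ADAMTS4 (-0.01 ± 0.06), ADAMTS15 (-0.14 ± 0.19) and ADAMTS20 (-0.14 ± 0.27) were smaller than their SE. The levels of ADAMTS9 overlapped, at 644, 764 and 719 CPM in vehicle, 636, 714 and 725 at 10 µM, and 599, 709 and 702 at 20 µM. The 9 tested ADAMs with a catalytic site had a median of 0.03, the 12 tested MMPs 0.00 and the 4 tested ADAMTS-like genes 0.19.

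MMP2 overlapped between all doses, at 825, 667 and 747 CPM in vehicle, 799, 695 and 744 at 10 µM, and 847, 636 and 712 at 20 µM. ADAM19 was at 107, 119 and 142 CPM in vehicle, 105, 119 and 146 at 10 µM, and 106, 130.3 and 153 at 20 µM, again with overlap. Groups that did not overlap numbered 3 lower (ADAMTS1, ADAMTS2 and ADAMTS5) and 1 higher (ADAM8) of 49 members, beside 3.35% lower and 3.41% higher of all genes.

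**Figure D3:**
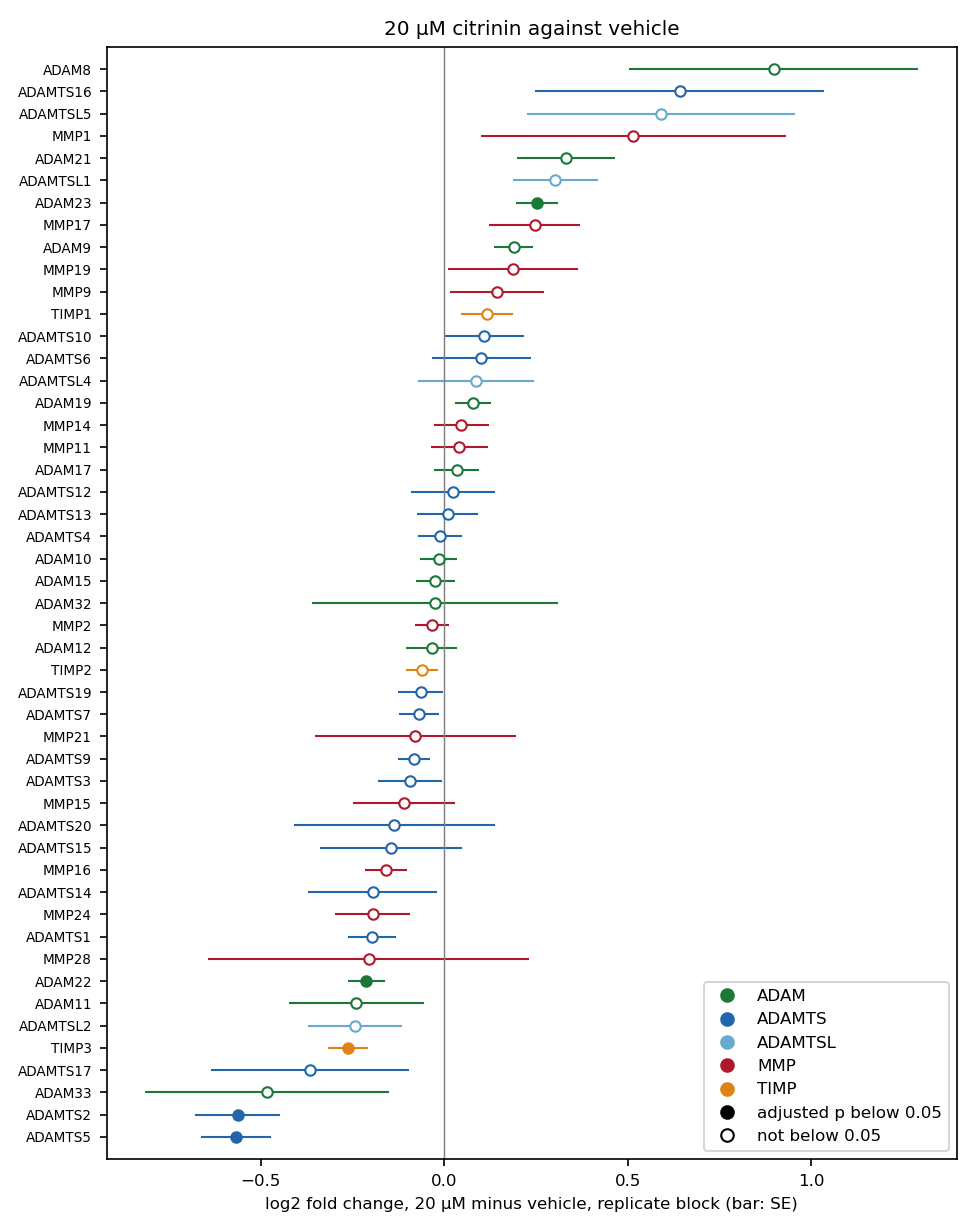
Log2 fold change at 20 µM against vehicle with its SE, edgeR with the replicate block, for the 49 tested genes coloured by family; filled points have an adjusted p below 0.05. ADAMTS5 and ADAMTS2 lie lowest, at -0.57 and -0.56, and the wide bars belong to genes near 1 CPM such as ADAM8.

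At 10 µM against vehicle no member passed with the block (6 of 17806 genes did, 0.0337%, all higher), and 5 of 49 had an unadjusted p below 0.05, where 3.59% of all genes did. Among the tested members only ADAMTSL5 had groups that did not overlap, and it was higher (2.06% of all genes were higher and 1.94% lower in this way). Without the block 0 passed and 0 had an unadjusted p below 0.05 (0.646% of all genes), and DESeq2 and limma-voom called 0 in both designs. The 3 members with the smallest p were ADAMTSL4, TIMP3 and ADAM8. ADAMTSL4, a matrix protein that binds fibrillin microfibrils, was at 5.08, 5.39 and 7.27 CPM in vehicle, 9.0, 6.51 and 8.17 at 10 µM, and 6.44, 5.03 and 7.41 at 20 µM (0.42 ± 0.15 at 10 µM; edgeR with the block, adjusted p = 1). TIMP3 had -0.14 ± 0.06 at this dose. ADAM8, a sheddase best known from leukocytes, was at 0.934, 0.624 and 0.528 CPM in vehicle, 1.61, 0.645 and 1.58 at 10 µM, and 1.81, 1.14 and 0.969 at 20 µM. It was higher than its same-numbered vehicle library in 3 of 3 pairs at both doses, which share those vehicle libraries. Of all 17806 tested genes 2121 were so at 10 µM and 3108 at 20 µM. At this level 3 reads are a sizeable part of the value. The log2 fold change of ADAM8 was 0.88 ± 0.39 at 10 µM and 0.90 ± 0.39 at 20 µM, neither called.

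Between 20 µM and 10 µM no member passed with or without the block, beside 0.444% of all genes with it (0.18% higher and 0.264% lower), and 11 of 49 had an unadjusted p below 0.05 in the fit with the block (8.81% of all genes). Without the block that number was 1, ADAMTS5 (1.18% of all genes), and DESeq2 and limma-voom called 0 in both designs. ADAMTS1 and ADAMTS5 were lower without overlap, and no tested member was higher (2.5% lower and 2.37% higher of all genes). The 3 smallest p were those of ADAMTS5 (-0.36 ± 0.10, adjusted p = 0.0951), ADAM23 (0.20 ± 0.06, 0.128) and ADAMTS2 (-0.41 ± 0.12, 0.134), in edgeR with the block. The difference between the doses was thus not past the threshold for any of the members called at 20 µM. The dose comparisons share libraries: both comparisons against vehicle use the same 3 vehicle libraries. For ADAMTS5 the log2 fold change was -0.20 ± 0.09 at 10 µM beside -0.57 ± 0.09 at 20 µM, and for ADAMTS2 -0.15 ± 0.11 beside -0.56 ± 0.12.

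With dose in the model, 34 of the 49 tested members (69.4%) differed between replicate numbers, beside 43.3% of all genes (edgeR F-test, adjusted p below 0.05). The range of the replicate means on log2(CPM + 0.1) was larger than that of the dose means for 42 of 49 (85.7%), beside 78.6% of all tested genes. The median range over replicate numbers was 0.53 and over doses 0.18, against 0.32 and 0.14 over all tested genes. The sources do not say what the numbers mark.

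ADAMTS19 had the widest gap. It was at 109, 23.9 and 54.0 CPM in vehicle replicates 1, 2 and 3, at 113, 26.2 and 53.8 at 10 µM, and at 107, 21.8 and 51.4 at 20 µM. The 3 numbers did not overlap at any dose, and the means of replicates 1 and 2 lay 2.19 apart on the log2 scale (edgeR, adjusted p = 2.45e-19). MMP14 was low in replicate 1 alone, at 18.7, 54.5 and 57.3 CPM in vehicle, 15.5, 55.8 and 55.0 at 10 µM, and 19.1, 62.7 and 53.5 at 20 µM (edgeR, adjusted p = 1.01e-15). ADAM12, a sheddase of mesenchymal and muscle cells, was at 26.7, 69.9 and 51.8 CPM in vehicle, 31.9, 67 and 49.0 at 10 µM, and 29.995, 62.6 and 49.8 at 20 µM (edgeR, adjusted p = 1.80e-12). ADAM23, described above, was the other gene among the 4 with the smallest p (edgeR, adjusted p = 1.88e-13).

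In the other direction, ADAMTS7 was highest in replicate 1, at 108, 75.6 and 74.7 CPM in vehicle, 106, 80.3 and 79.9 at 10 µM, and 102, 75.6 and 68.1 at 20 µM. MMP11 was at 46.0, 23.7 and 34.7 CPM in vehicle, 38.0, 24.0 and 31.8 at 10 µM, and 44.5, 28.5 and 33.2 at 20 µM, with replicate 2 lowest. Of the 34, 12 were highest in replicate 1 without overlap and 13 lowest there, out of 49 tested; over all tested genes 13.2% and 14.6% were called with these patterns. All 3 tested TIMPs, MMP2 and ADAMTS19 were among the 9 that were lowest in replicate 2 without overlap, a pattern called in 4.39% of all tested genes. Only ADAMTS5 and ADAMTS1 among the members lower at 20 µM without overlap did not differ between replicate numbers; ADAMTS2 did (edgeR, adjusted p = 0.0105).

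**Figure D4:**
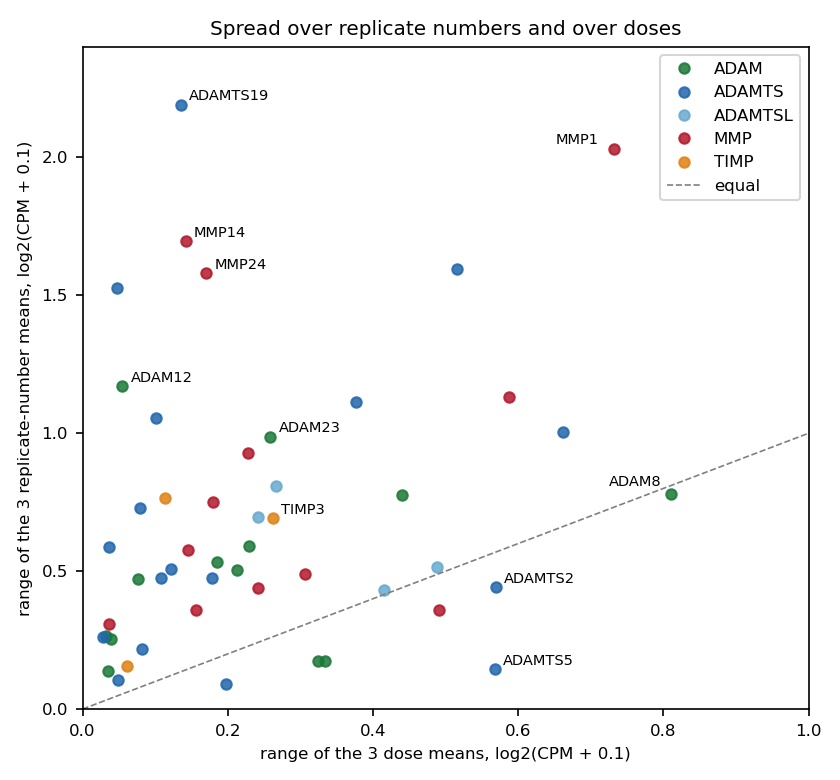
Range of the 3 replicate-number means against the range of the 3 dose means, both on log2(CPM + 0.1), for the 49 tested genes; the dashed line marks equal ranges. Of the 49 genes 42 lie above the line, ADAMTS19 highest at 2.19, while ADAMTS5 and ADAMTS2 lie below it.

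Markers of other cell types were summed in the same libraries. The 13 mesenchymal markers came to 3451 to 3518 CPM in replicate 1, 2431 to 2613 in replicate 2 and 3250 to 3420 in replicate 3. Over the doses they ranged from 2431 to 3509 in vehicle, 2613 to 3451 at 10 µM and 2553 to 3518 at 20 µM. Replicate 2 was thus lowest both for this sum and for the TIMPs, MMP2 and ADAMTS19. In contrast, ADAM12, ADAM22, ADAMTS20, MMP15 and MMP24 were highest in replicate 2 without overlap. The share of all tested genes with this pattern was not counted, so these are single values only. The single markers did not share 1 order. In vehicle replicates 1, 2 and 3 COL1A1 was at 457, 66.5 and 273 CPM. CD44 was at 96.2, 142 and 222 CPM there, and DCN at 20.6, 12.3 and 7.1. The part of mesenchymal cells in the differences between replicate numbers was not tested. Fewer cells of a type and less RNA per cell cannot be told apart in bulk RNA. Glial markers summed to between 6.54 and 9.98 CPM, with FOXD3 and CDH19 under 3 reads in every library. Epithelial markers summed to between 41.8 and 59.0 CPM. Leukocyte markers reached at most 3.43 CPM, with CD68 and AIF1 under 3 reads, and endothelial markers 3.08 CPM, with CDH5 under 3 reads.

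Of 87 partners and substrates of these enzymes 75 were tested, and 1 rose and 0 fell at 20 µM with the block, beside 0.848% and 1.36% of all genes. An unadjusted p below 0.05 was reached by 17 of the 75 (22.7%) in that fit, beside 13.1% of all genes. The riser was CD44, a hyaluronan receptor shed by ADAM10 and MMP14 and also one of the mesenchymal markers. It went from 153 ± 63.9 to 208 ± 86.0 CPM (0.44 ± 0.05; edgeR with the block, adjusted p = 1.78e-06) and also rose between 10 and 20 µM (0.31 ± 0.05; edgeR with the block, adjusted p = 0.000865). Without the block 0 passed and 2 had an unadjusted p below 0.05. None of the 12 tested genes of ADAM maturation, 15 of plasminogen and MMP control, 7 of procollagen processing or 20 matrix substrates passed at any dose with the block. Versican, VCAN, a lectican, stood at 436 CPM in vehicle and 439.9 at 20 µM. Aggrecan, ACAN, was not tested, at 0.078 CPM in vehicle. At 10 µM none of the 75 passed.

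Some members share exons with genes on the opposite strand, and the joint count leaves out reads that fall on both. The strand-wise counts in the same tables keep them, so the difference shows how many were left out for this reason. That difference does not show reads shared with a gene on the same strand. MMP2 shares 174 bases of exon and ADAM15 306 bases in this way. Of 50 members with at least 100 strand-wise reads, 12 lost over 10% and 34 lost under 1%. MMP25 lost 88.7%, with MMP25-AS1 on the other strand, MMP19 70.8% (TMEM198B), MMP24 50.8% (MMP24OS) and MMP21, for which GENCODE 29 lists no overlapping gene, 66.2%. The loss was 35.7% for ADAM17 (IAH1), 31.9% for MMP9 (SLC12A5-AS1) and 17.5% for TIMP2. Levels of these genes may therefore be incomplete, and the reads left out may come from either gene, since the library does not mark strand. The called genes were little touched: ADAMTS2 and ADAMTS5 lost 0%, ADAM22 0.00432%, TIMP3 0.00795% and ADAM23 0.357%.

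**Figure D5:**
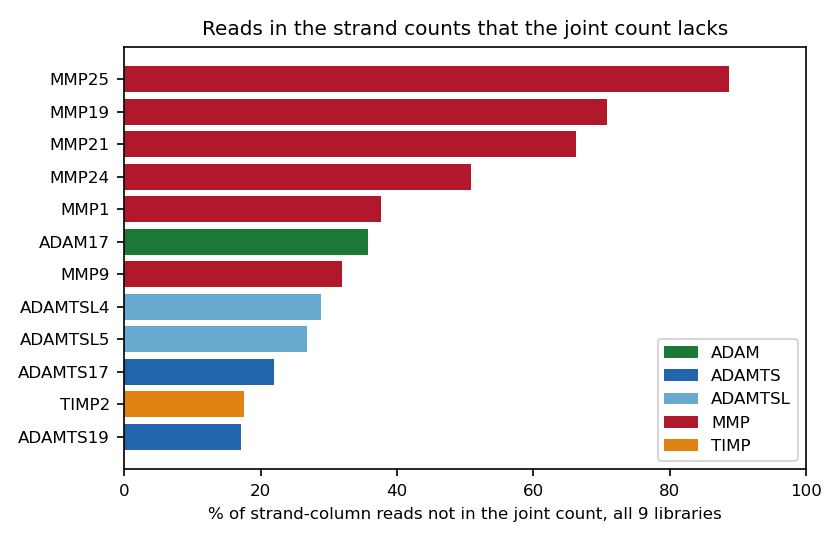
Share (%) of strand-wise reads that the joint count lacks, summed over the 9 libraries, for the 12 genes above 10% among those with at least 100 such reads. MMP25 is highest at 88.7% and ADAMTS19 lowest at 17.1%.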

How the data were processed

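The members and gene lists were chosen with earlier results of these data known. Per the submitters' processing notes FastQC, cutadapt, STAR and edgeR were used with GRCh38; no tool version or annotation release is named there. The authors deposited raw read counts per gene for each library, jointly for both strands and for each strand. The joint count was the value analysed. Reads on the 2 strands were about equal (ratio 0.9808 to 0.9934). Unmapped (2.86% to 3.62%), multimapping (2.22% to 2.61%), unannotated (6.75% to 7.98%) and ambiguous (9.51% to 10.1%) reads entered neither library sizes nor tests. A normalized table was not used.

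Groups and replicate numbers came from the sample titles. Symbols matched 61369 of 61487 IDs; positions, types and exon lengths are from GENCODE 29, whose build matches the one named. Genes passing filterByExpr (17806) were fitted in edgeR 4.0.16 (R 4.3.3; TMM, robust quasi-likelihood, 9 libraries, no covariate), with the SE taken from the F statistic. Alternatives were the replicate block, DESeq2's size factors, no low-count filter, DESeq2 1.42.0, limma-voom (limma 3.58.1) and leaving out libraries. The fits were tested on simulated data. All 9 same-numbered pairs of libraries had correlated deviations from their group means (r of 0.532 to 0.745; different numbers -0.602 to 0.175), above the limit of 0.1, so the numbers, which stand in the titles, were taken to pair the samples. Libraries of 1 group differed by more than counting error (chi-square 8.66 to 35.3 for each degree of freedom).

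Every member was counted. Named with all libraries were ADAMTS2 and ADAMTS5, each member called in either design, the 3 highest per kilobase in each family (ADAMTS with ADAMTS-like), the 3 smallest p per dose comparison and the 4 smallest p between replicate numbers. ADAMs were split by catalytic activity from textbook knowledge, because no protein sequences were used here. RefSeq promoter entries matched 43 of the 70; ADAMTS5 had none.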

Additional observations from a re-analysis of the deposited data

How the results depend on the processing

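The count of members called at 20 µM against vehicle was 0 in edgeR without the replicate block, and with it 5. With the replicate block it was also 5 with DESeq2's size factors, in DESeq2 and in limma-voom, and 6 with no low-count filter, which added ADAM9. Leaving out 1 library at a time gave 0 to 0 without the block and 1 to 7 with it. ADAMTS5 was called in all 9 of the latter, and it alone remained without vehicle replicate 2. Leaving out a replicate number in all 3 groups was an alternative chosen after the data were seen. With the block it gave 5 without replicate 1, 4 without replicate 2 and 1, ADAMTS5, without replicate 3. The 5 without replicate 1 were not the same 5. ADAM23 and TIMP3 were lost there, and ADAM9, a protease-active ADAM, and ADAMTSL1, an ADAMTS-like gene, were added. Without replicate 2 ADAM23 was lost. For 20 µM against 10 µM the count of 0 became 2 with the block and no low-count filter, 0 to 3 with the block and 1 library left out, and 1, 2 and 0 without replicate 1, 2 and 3. At 10 µM it stayed 0 in every setting run. The partner and substrate count of 0 at 20 µM became 1 with the block, and, all with the block, 1 with DESeq2's size factors, 6 with no filter, 2 in DESeq2 and 2 in limma-voom, 1 to 8 with 1 library left out and 4, 3 and 1 without replicate 1, 2 and 3, and stayed 0 at 10 µM. The number of members that differed between replicate numbers (34) ranged from 32 to 35 over all alternatives. Without the block the log2 fold change of ADAM23 ranged from -0.031 to 0.468 at 20 µM against vehicle and from -0.066 to 0.424 against 10 µM when 1 library was left out, turning direction without vehicle replicate 1 and 10 µM replicate 1 respectively. That of TIMP3 at 10 µM ranged from -0.298 to 0.054 and turned without vehicle replicate 1 (0.045) or 10 µM replicate 2 (0.054). The cause was not tested. Depth limits the genes near 1 CPM, such as ADAM8 and MMP1, whose log2 SE at 20 µM was 0.39 and 0.42.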

Other observations

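The MMP gene cluster of chromosome 11 was almost silent. Its 9 members, MMP7, MMP20, MMP27, MMP8, MMP10, MMP1, MMP3, MMP12 and MMP13, lie between 102520508 and 102955734 (GRCh38, GENCODE 29) and had 264 reads in the 9 libraries together, of which 181 belonged to MMP1, the one member tested. MMP20 and MMP27 had none. MMP1, an interstitial collagenase, was at 0.18, 0.57 and 2.11 CPM in vehicle replicates 1, 2 and 3, at 0.98, 0.84 and 1.74 at 10 µM, and at 0.42, 0.97 and 2.51 at 20 µM. It was highest in replicate 3 without overlap, and 37.6% of its strand-wise reads were not in the joint count. MMP1 was chosen for this after its values were seen.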
